A study of Rattus norvegicus with 52 samples.

Results

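Cyclins and their partner kinases were measured in rat liver by 10 probe sets for 7 genes, of 8740 non-control probe sets on the array. They were chosen by the database accession that begins the probe set ID: Ccnd1 (d14014_at, d14014_g_at and x75207_s_at), Ccnd2 (d16308_at), Ccnd3 (d16309_at and d16309_g_at), Cdk4 (l11007_at), Ccnb1 (x64589_at), Cdk1 (x60767mrna_s_at) and Ccng1 (x70871_at). The choice names 9 genes, of which Cdc20 and Pcna had 0 probe sets by this choice and so were not analysed. The table pairs no ID with a gene name, so the names are those of the choice. All liver came from F344 rats, an inbred strain, that were controls or treated with clofibric acid (CA) at 0.29% or 0.54%. Neither the age, the sex, the route nor the length of treatment is given in the sources used here. The labels give 5 section preparations. Of entire sections there were 8 controls, 8 arrays at 0.29% CA and 6 at 0.54% CA, and of stained sections 8, 7 and 5. There was a single array per dose for dehydrated sections and for those of the reference time of laser capture microdissection (LCM), a method that lifts chosen parts of a section under a microscope. Of microdissected liver there were 2 controls and a single array per CA dose.

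Progress through the cell cycle is driven by kinases that act only when bound to a cyclin. D-type cyclins, here Ccnd1, Ccnd2 and Ccnd3, answer growth signals and activate Cdk4, which phosphorylates the retinoblastoma protein and so opens the way to DNA synthesis, while cyclin B1 (Ccnb1) with Cdk1 drives entry into mitosis. Most hepatocytes of an adult liver are at rest. Clofibric acid activates the nuclear receptor PPARα, and drugs of this kind enlarge the liver of rodents and start hepatocyte division there.

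Intensities below are linear and as deposited, and they can be negative. Differences and folds are on a log2 scale after lower values had been raised to a floor of 4 (the 10th percentile of all intensities above 0) and all 52 arrays quantile normalized. A probe set was called when its adjusted p in limma (Benjamini-Hochberg over all probe sets tested) lay under 0.05. All 10 probe sets passed the filter on low values, which asks for 1 array over the floor in the fit, and were tested, but Ccnd2 and Cdk1 passed it through very few arrays. Mean intensities of arrays lay between 163 and 202 in entire and between 132 and 196 in stained sections. RNA quality differed between preparations: the GAPDH ratio (signal from the 3′ end of the GAPDH transcript over that from the 5′ end, which grows as RNA breaks down) was 1.54 at the median of 22 entire arrays and 8.45 at that of 20 stained arrays. In entire sections the medians were 1.36 in controls, 1.35 at 0.29% CA and 2.16 at 0.54% CA. Entire control replicate 7, entire 0.29% replicate 7 and entire 0.54% replicate 5 stood apart with ratios of 6.25, 5.07 and 6.49, and 3 stained arrays (control replicate 8, 0.29% replicate 7 and 0.54% replicate 5) had a 5S rRNA intensity of 229 to 241. These are the 6 arrays said below to stand apart. The 5S rRNA intensity was higher still on microdissected control replicate 2 (285) and the microdissected arrays at 0.29% (319) and 0.54% CA (754). It was 587 on the LCM-reference-time array at 0.29% CA. Arrays of these preparations were not among the 6. Markers of hepatocytes and of other liver cells could not be checked by name, and in a bulk section fewer cells of a type and less RNA per cell cannot be told apart.

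Ccnb1 was lower in entire sections of CA-treated rats at both doses, and it was the member that passed the test in that preparation. Its intensity ran from 21 to 80 in entire controls (median 54.5, n = 8), from -2 to 43 at 0.29% CA (median 22, n = 8) and from -20 to 22 at 0.54% CA (median 0, n = 6). All 8 arrays at 0.29% and all 6 at 0.54% lay under the control median. At 0.54% 5 of 6 arrays lay under every control, and at 0.29% 3 of 8 did, so both CA groups still overlapped the controls, whose lowest array was replicate 2. After normalization Ccnb1 fell by 1.48 on the log2 scale at 0.29% (SE 0.42, limma adjusted p = 0.0218, 2.80-fold lower) and by 3.01 at 0.54% (SE 0.45, limma adjusted p = 4.39e-05, 8.04-fold lower). At 0.54% 4 of 6 arrays were at the floor, and the size depends on it: with a floor of 20 the fall was 1.08 on the log2 scale (2.11-fold, limma adjusted p = 0.000241). At 0.29%, where 1 of 8 arrays was at the floor, it was then 0.87 (1.83-fold, limma adjusted p = 0.00126). It was called in all 25 alternatives tried at 0.29% (adjusted p 0.00126 to 0.0481) and in all 23 at 0.54% (adjusted p 6.15e-06 to 0.000713).

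The higher dose had the lower Ccnb1 signal, without passing the test between doses. The difference between 0.54% and 0.29% CA in entire sections was -1.52 on the log2 scale (SE 0.45, limma adjusted p = 0.128), and it shrank to -0.21 with a floor of 20. It passed with array weights (-1.60, adjusted p = 0.0461), without entire 0.29% replicate 5 (-1.80, adjusted p = 0.0408) and without entire 0.54% replicate 5 (-1.88, adjusted p = 0.0484), while adjusted p reached 0.714 over the 23 alternatives.

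In stained sections Ccnb1 was not called at either dose. Its intensity ran from 22 to 129 in controls (median 42.5, n = 8) and from 7 to 59 at 0.29% CA (median 42, n = 7), and it was 28, 82, 26, 33 and 109 at 0.54% CA. The CA groups overlapped the controls over most of their range, with differences of -0.62 at 0.29% (95% interval -1.65 to 0.40, limma adjusted p = 0.696) and -0.20 at 0.54% (95% interval -1.33 to 0.93, limma adjusted p = 0.89). The lowest stained array at 0.54%, 26, was above the highest entire array at that dose, 22. Cdk4 was separated the other way at 0.29% CA, with all 7 stained arrays under every entire array. The share of all probe sets so separated was not counted. The CA effect on Ccnb1 at 0.54% differed between the preparations by 2.80 on the log2 scale (95% interval 1.36 to 4.25), which did not pass (limma adjusted p = 0.129, unadjusted p = 0.000342). It passed without the 6 arrays that stood apart (3.05, adjusted p = 0.0376), without entire 0.54% replicate 5 (3.16, adjusted p = 0.0477) and without stained control replicate 8 (3.06, adjusted p = 0.0429), and with a floor of 20 the difference was 0.88 (adjusted p = 0.543). The GAPDH ratio is higher in stained than in entire sections, and with its log2 as a covariate the difference was 3.29 (adjusted p = 0.0663). Entire 0.54% replicate 5, with the highest GAPDH ratio of its group, also had the highest Ccnb1 intensity of its group, 22. Entire control replicate 7 and entire 0.29% replicate 7, also with the highest ratios of their groups, read 57 and 24. Their group medians were 54.5 and 22. Whether the ratio bears on Ccnb1 was not tested.

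**Figure D1:**
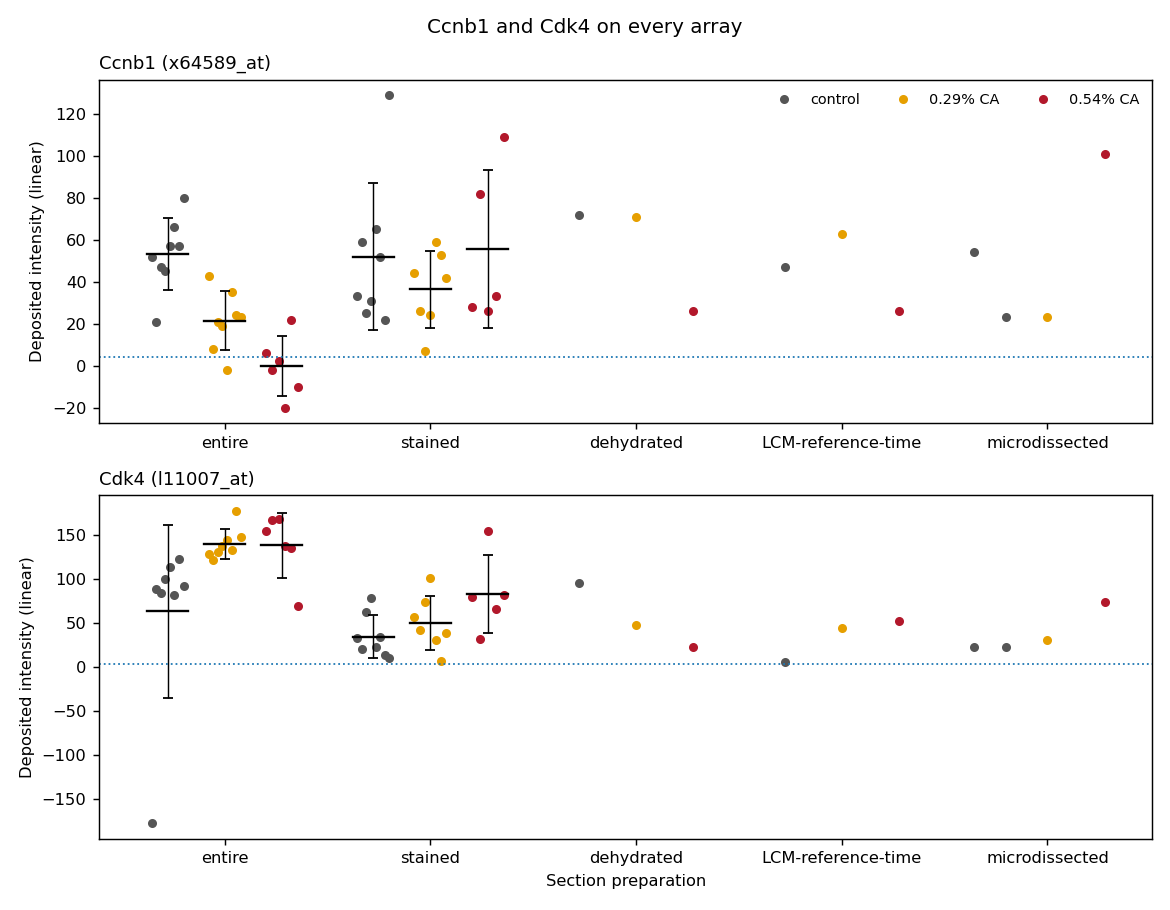
Deposited linear intensity (vertical axes) of Ccnb1 and Cdk4 on each of the 52 arrays, by section preparation and CA dose; points are arrays, bars are means with SD for groups of 5 or more, and the dotted line is the floor of 4. Ccnb1 has medians of 54.5, 22 and 0 in order of dose in entire sections and of 42.5, 42 and 33 in stained sections. For Cdk4 in entire sections, 7 of 8 arrays at 0.29% CA and 5 of 6 at 0.54% CA lie above every control, and 1 control is at -177.

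Ccnb1 was the member called lower in entire sections, and Cdk1 is its partner kinase. Cdk4 had the largest upward difference in entire sections. The promoters of these 3 genes are printed to set their letters beside these values. They are RefSeq windows on build GRCr8 of 300 bases, 250 before and 50 after the annotated start, at chr2:33655176-33655475 (minus strand), chr20:19265043-19265342 (plus strand) and chr7:64771203-64771502 (plus strand), written 5′ to 3′ along the gene. Capitals mark CCAAT boxes (CCAAT or ATTGG), E-boxes (CACGTG), a site type bound by Myc and related factors, and the letters TTTGAA or TTCAAA of the cell cycle genes homology region, an element of many mitotic promoters.
Ccnb1: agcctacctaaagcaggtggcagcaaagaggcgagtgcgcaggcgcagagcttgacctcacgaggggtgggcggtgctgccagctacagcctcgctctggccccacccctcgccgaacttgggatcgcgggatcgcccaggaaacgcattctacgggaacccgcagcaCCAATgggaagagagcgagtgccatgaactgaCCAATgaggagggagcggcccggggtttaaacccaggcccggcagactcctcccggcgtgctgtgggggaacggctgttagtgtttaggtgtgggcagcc
Cdk1: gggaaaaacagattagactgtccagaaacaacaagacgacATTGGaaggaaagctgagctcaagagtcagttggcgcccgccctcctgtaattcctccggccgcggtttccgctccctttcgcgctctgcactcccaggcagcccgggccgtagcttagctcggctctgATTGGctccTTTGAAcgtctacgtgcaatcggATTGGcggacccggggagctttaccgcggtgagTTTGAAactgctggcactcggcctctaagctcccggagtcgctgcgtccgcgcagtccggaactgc
Cdk4: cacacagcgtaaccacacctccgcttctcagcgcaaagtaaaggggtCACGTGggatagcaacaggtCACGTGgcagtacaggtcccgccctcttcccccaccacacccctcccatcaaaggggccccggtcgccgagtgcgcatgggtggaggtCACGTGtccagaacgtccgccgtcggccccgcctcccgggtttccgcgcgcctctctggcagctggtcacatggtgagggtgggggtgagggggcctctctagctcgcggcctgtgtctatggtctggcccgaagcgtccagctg
The Ccnb1 window held 2 CCAAT boxes, at positions 169 and 201 from its 5′ end, and no E-box or TTTGAA. Cdk1 had 3 CCAAT boxes and 2 TTTGAA, and Cdk4 had 3 E-boxes and neither of the others. Among 33469 rat promoter windows of this length, 37.5% held a CCAAT box, 6.42% an E-box and 18.3% TTTGAA on either strand. The direct repeat of AGGNCA with 1 base between its copies, the form of site bound by PPARα with RXR, was in none of these 3 windows and in 0.415% of all windows, on either strand. These are matches of letters in a short window and no measurement of binding. Other letters of the homology region were not searched for, so the Ccnb1 window is not shown to lack that element.

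Cdk4, the kinase that D-type cyclins activate, had higher intensities on most CA-treated arrays than on any entire control, yet neither dose passed the test with all arrays. Entire controls read -177, 88, 84, 100, 114, 82, 123 and 92 in order of replicate number, and replicate 1 is thus the lone value below 0. At 0.29% CA the intensities ran from 121 to 177 (median 135, n = 8), with 7 of 8 arrays above every control, and at 0.54% CA from 69 to 168 (median 145.5, n = 6), with 5 of 6 above every control. With all arrays, the differences were 1.04 at 0.29% (SE 0.46, limma adjusted p = 0.187) and 0.94 at 0.54% (SE 0.50, limma adjusted p = 0.239). Without control replicate 1 the difference at 0.29% was smaller and had a smaller error, 0.50 (SE 0.14, limma adjusted p = 0.0266, 1.41-fold), and that at 0.54% was 0.40 (SE 0.15, limma adjusted p = 0.0904). A floor of 20 also brought the 0.29% difference past the threshold (0.75, limma adjusted p = 0.0436), and over all 25 alternatives adjusted p reached 0.265.

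In stained sections the median Cdk4 intensity was also higher at both doses, without a call. Intensities ran from 10 to 78 in controls (median 28, n = 8) and from 7 to 101 at 0.29% CA (median 42, n = 7), and were 80, 32, 154, 66 and 82 at 0.54% CA, where 3 of 5 arrays lay above every stained control. The differences were 0.44 at 0.29% (95% interval -0.58 to 1.47, limma adjusted p = 0.796) and 1.12 at 0.54% (95% interval -0.0032 to 2.25, limma adjusted p = 0.275). Doses did not differ by the test in either preparation (-0.10 in entire sections, limma adjusted p = 0.994; 0.68 in stained sections, limma adjusted p = 0.951).

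Ccnd1, the cyclin most tied to hepatocyte growth signals, gave no call for CA in entire or stained sections, and its 3 probe sets gave differences of unlike size. In entire sections d14014_at ran from 25 to 91 in controls (median 39, n = 8), from 29 to 58 at 0.29% CA (median 35, n = 8) and from 28 to 65 at 0.54% CA (median 42.5, n = 6). These groups overlapped almost fully, and the differences were -0.09 (95% interval -0.50 to 0.32) and 0.09 (95% interval -0.35 to 0.54), with limma adjusted p of 0.867 and 0.84. A change of 2-fold in either direction lies outside both intervals. Probe set d14014_g_at, from the same accession, ran from 10 to 58 in controls (median 18.5), from -22 to 21 at 0.29% (median 8.5) and from 0 to 17 at 0.54% (median 11). All 6 arrays at 0.54% and 6 of 8 at 0.29% lay under the control median, and the differences were -0.93 (SE 0.33, limma adjusted p = 0.0775) and -0.97 (SE 0.36, limma adjusted p = 0.0703).

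The d14014_g_at values near the threshold turn on single arrays. Its difference passed at 0.29% without control replicate 1 (-1.07, limma adjusted p = 0.0445), control replicate 4 (-1.08, limma adjusted p = 0.039) or 0.29% replicate 3 (-1.08, limma adjusted p = 0.0399), and at 0.54% without control replicate 1 (-1.11, limma adjusted p = 0.0422) or control replicate 4 (-1.12, limma adjusted p = 0.0363). With a floor of 20 most of its values are at the floor, and the differences were -0.15 at both doses. Over its alternatives adjusted p ran up to 0.48 at 0.29% and 0.429 at 0.54%. The third Ccnd1 probe set, x75207_s_at, ran from 12 to 80 in entire controls (median 30), from -2 to 46 at 0.29% (median 24.5) and from 9 to 39 at 0.54% (median 18), with differences of -0.46 and -0.73 (limma adjusted p = 0.544 and 0.251). Entire control replicate 8 was the highest control for all 3 Ccnd1 probe sets, at 91, 58 and 80, where the next highest controls read 42, 23 and 39.

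**Figure D2:**
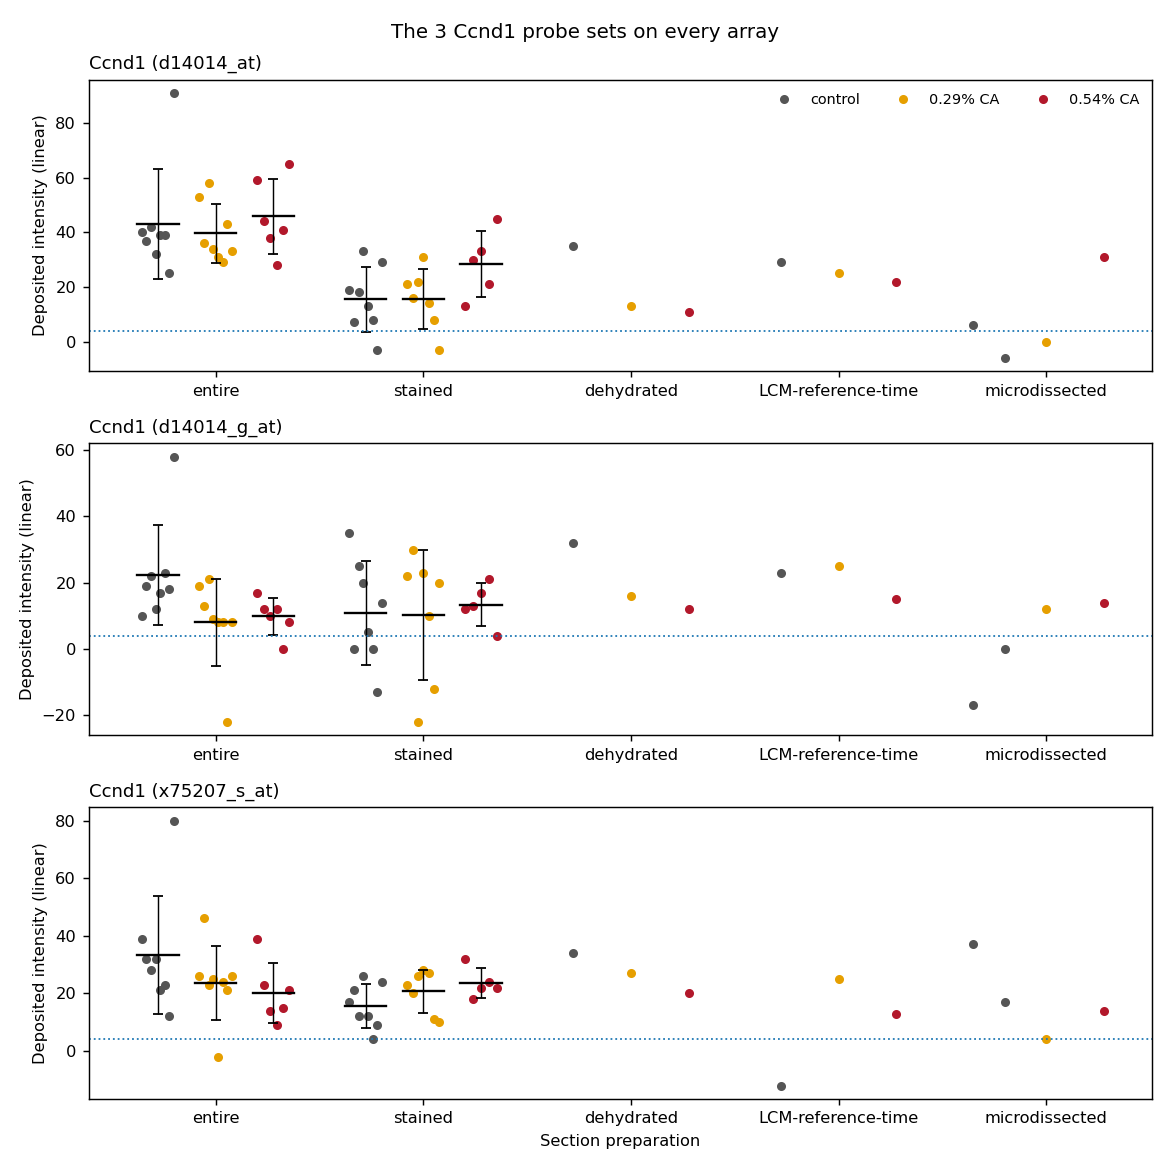
Deposited linear intensity (vertical axes) of the 3 Ccnd1 probe sets on each of the 52 arrays, by section preparation and CA dose; points are arrays, bars are means with SD for groups of 5 or more, and the dotted line is the floor of 4. The highest entire control in all 3 panels, at 91, 58 and 80, is the same array, and the dose groups overlap in each panel.

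In stained sections the Ccnd1 values were low. Over all doses d14014_at was above the floor on 18 of 20 stained arrays, d14014_g_at on 14 and x75207_s_at on 19. Their medians were 18.5, 13.5 and 21.5 on stained arrays and 39, 12 and 23.5 on entire arrays. Probe set d14014_at ran from -3 to 33 in controls (median 15.5, n = 8) and from -3 to 31 at 0.29% CA (median 16, n = 7), and was 13, 30, 33, 21 and 45 at 0.54% CA. No CA difference of a Ccnd1 probe set passed there, and the largest in size was 0.83 for d14014_at at 0.54% (95% interval -0.26 to 1.93, limma adjusted p = 0.427). For x75207_s_at the CA difference at 0.54% was 0.60 in stained and -0.73 in entire sections, and the test of that contrast gave 1.33 (SE 0.55, limma adjusted p = 0.427, unadjusted p = 0.0213).

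Ccnd3, the most broadly expressed D-type cyclin, gave no call for CA either, with lower medians at the higher dose in entire sections for both of its probe sets. Probe set d16309_g_at was above the floor on all 52 arrays. It ran from 48 to 123 in entire controls (median 90, n = 8), from 48 to 95 at 0.29% CA (median 76, n = 8) and from 39 to 114 at 0.54% CA (median 63, n = 6). At 0.54% 5 of 6 arrays were under the control median and replicate 6, at 114, was far above the other five, of which the highest read 66. The difference at 0.54% was -0.52 (SE 0.23, limma adjusted p = 0.151). It passed without that replicate (-0.75, limma adjusted p = 0.0111) and with array weights (-0.71, limma adjusted p = 0.00276), while over the 23 alternatives adjusted p reached 0.348. The stained values of d16309_g_at, 28 to 79 in controls, 31 to 65 at 0.29% and 68, 38, 73, 36 and 78 at 0.54%, overlapped, with differences of -0.18 and -0.01 (limma adjusted p = 0.85 and 1).

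The other Ccnd3 probe set, d16309_at, ran from 11 to 87 in entire controls (median 58), from -10 to 70 at 0.29% CA (median 55.5) and from -14 to 50 at 0.54% CA (median 28). All 6 arrays at 0.54% lay under the control median, with a difference of -1.04 (SE 0.70, limma adjusted p = 0.378). The 3 entire arrays with a GAPDH ratio above 4 read 11, -10 and -14, each the lowest of its group. Without them the difference at 0.54% was -0.87 (limma adjusted p = 0.389), and over all 23 alternatives adjusted p ran from 0.0937 to 0.656.

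Ccng1, an unusual cyclin that p53 induces, gave no call for CA in entire or stained sections. In entire sections it ran from 62 to 108 in controls (median 68, n = 8), from 52 to 92 at 0.29% CA (median 67, n = 8) and from 37 to 93 at 0.54% CA (median 68, n = 6). The differences were -0.11 (95% interval -0.45 to 0.24) and -0.18 (95% interval -0.55 to 0.19), and limma adjusted p was 0.78 and 0.573. As for d14014_at, both intervals lie inside a 2-fold change. In stained sections it ran from 53 to 103 in controls (median 84) and from 49 to 116 at 0.29% (median 82), and was 23, 71, 84, 130 and 67 at 0.54%, with a difference at that dose of -0.55 (95% interval -1.19 to 0.08, limma adjusted p = 0.358). Replicate 7 of the entire controls, with a GAPDH ratio of 6.25, had the highest control value, 108.

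**Figure D3:**
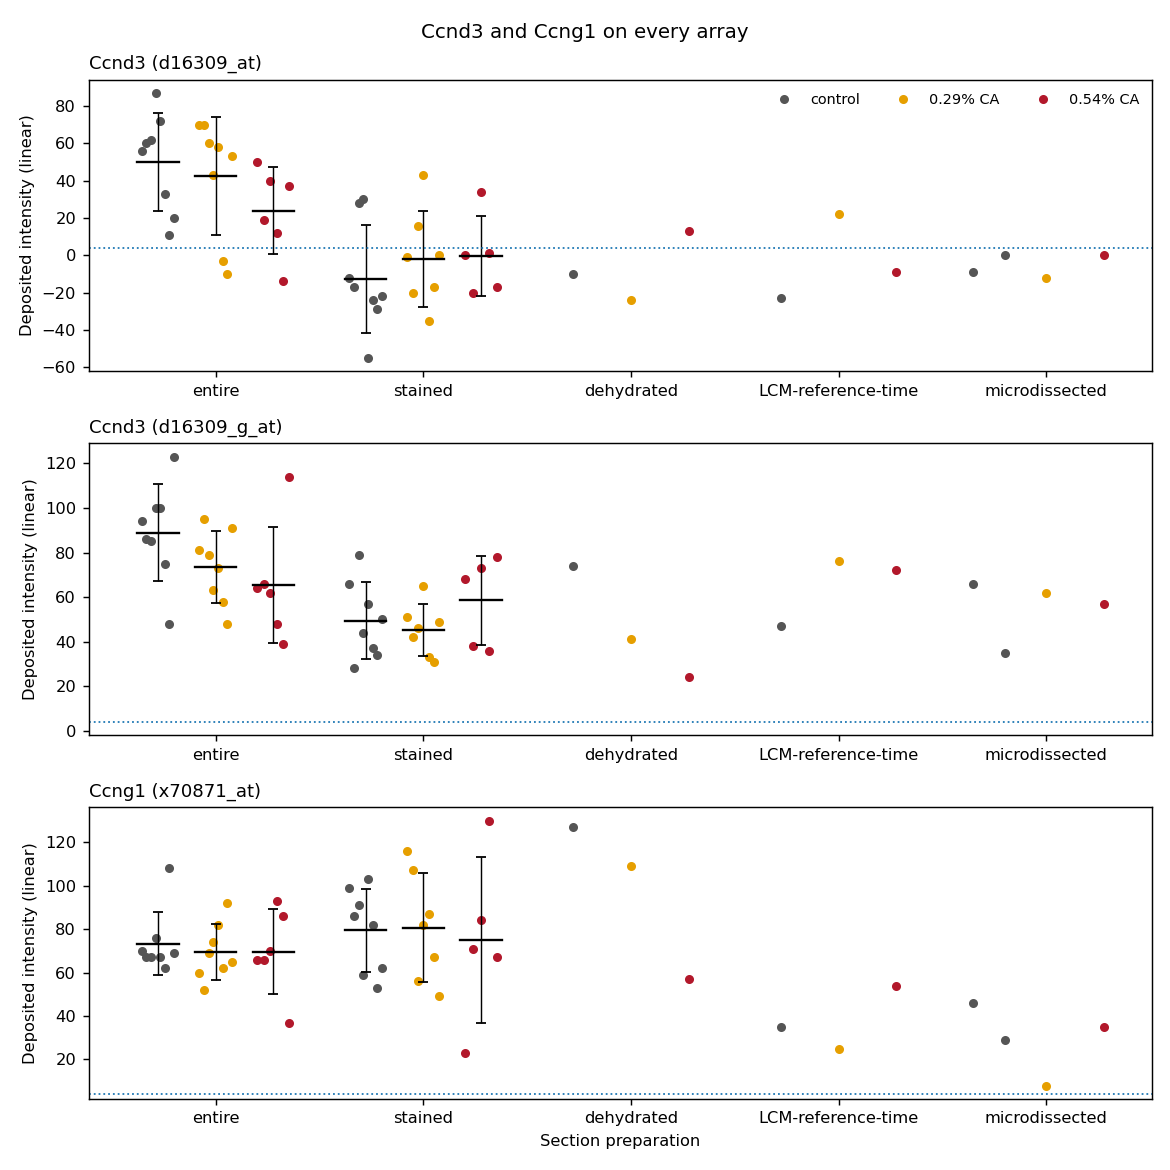
Deposited linear intensity (vertical axes) of the 2 Ccnd3 probe sets and of Ccng1 on each of the 52 arrays, by section preparation and CA dose; points are arrays, bars are means with SD for groups of 5 or more, and the dotted line is the floor of 4. In the top panel 19 of 22 entire arrays but 5 of 20 stained arrays are above the floor, while d16309_g_at of the same gene is above it on all 52.

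Ccnd2, a D-type cyclin, and Cdk1, the mitotic kinase that binds cyclin B1, were at or near the floor in every preparation. Ccnd2 was above it on 8 of 52 arrays, at most at 13, and 34 of its values were below 0. In entire sections it was above the floor on 2 of 8 controls, 1 of 8 arrays at 0.29% and 0 of 6 at 0.54%. Cdk1 was above the floor on 5 of 52 arrays, at most at 7, with 29 values below 0, and in entire sections it was above it on 0 of 8 controls, 0 of 8 arrays at 0.29% and 1 of 6 at 0.54%. Neither intensity ever reached 20 with any dose or preparation, so no fold is given for these genes. Ccnb1, which acts together with Cdk1, was above the floor on 47 of 52 arrays.

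**Figure D4:**
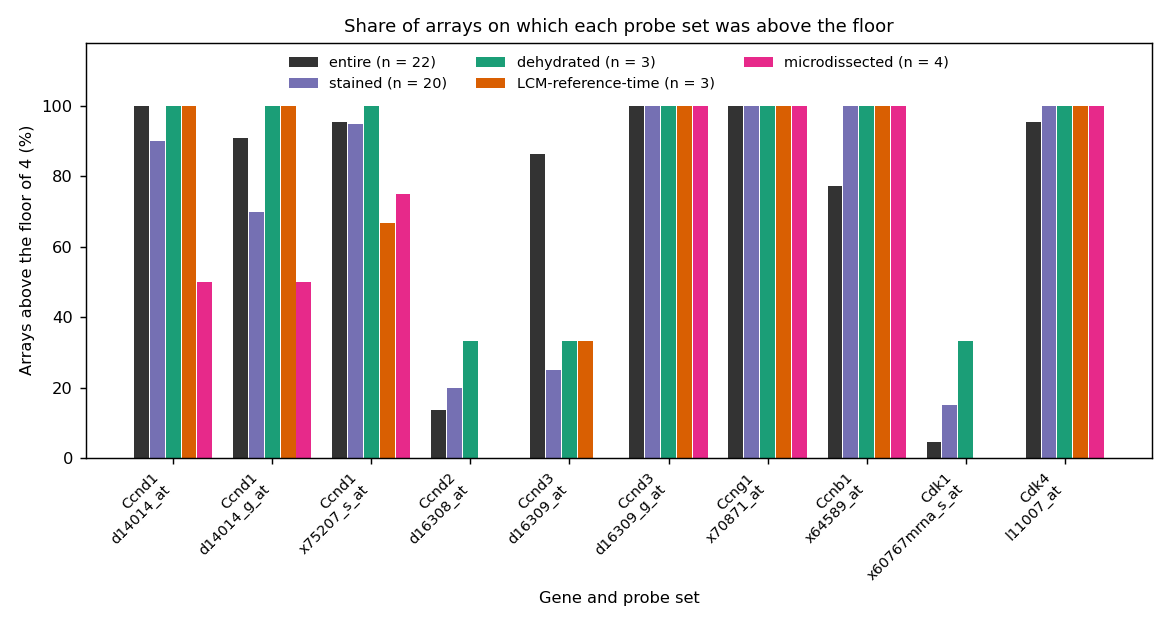
Percent of arrays on which each of the 10 probe sets was above the floor of 4 (vertical axis, from 0), by section preparation, with the number of arrays in the key. Ccnd2 and Cdk1 are above it on few arrays, and d16309_at of Ccnd3 on 19 of 22 entire but 5 of 20 stained arrays.

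Over the 10 members, calls for CA in sections were few. In entire sections 1 was called lower and 0 higher at each dose, Ccnb1 both times, beside 11.2% of all 7804 probe sets called in either direction at 0.29% and 15.8% at 0.54% (5.69% and 7.74% lower). The members' share is near that background and is no result about these genes as a set. Both doses were set against the same controls. The median difference of the 10, which hold 3 probe sets of Ccnd1 and 2 of Ccnd3, was -0.23 and -0.35. For all probe sets it was -0.01 at both doses. An unadjusted p under 0.05 was seen for 3 members at each dose. The share of all probe sets under that limit was not counted, here or for the contrasts below. Such counts of members thus cannot be read as an excess. Between the doses 0 members were called, beside 1.01% of all, and 1 had an unadjusted p under 0.05. In stained sections limma called 0 members at either dose, beside 3.61% of 7913 probe sets at 0.29% and 6.31% at 0.54%. At both doses 0 members had an unadjusted p under 0.05. The median difference of the members there was -0.07 and 0.10 against -0.01 and -0.05 for all. Between the stained doses 0 were called, beside 0.0632% of all, and 0 had an unadjusted p under 0.05. Tests of the CA effect between stained and entire sections called 0 members, beside 0.0855% at 0.29% and 0.134% at 0.54%, with 0 and 2 members at an unadjusted p under 0.05.

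**Figure D5:**
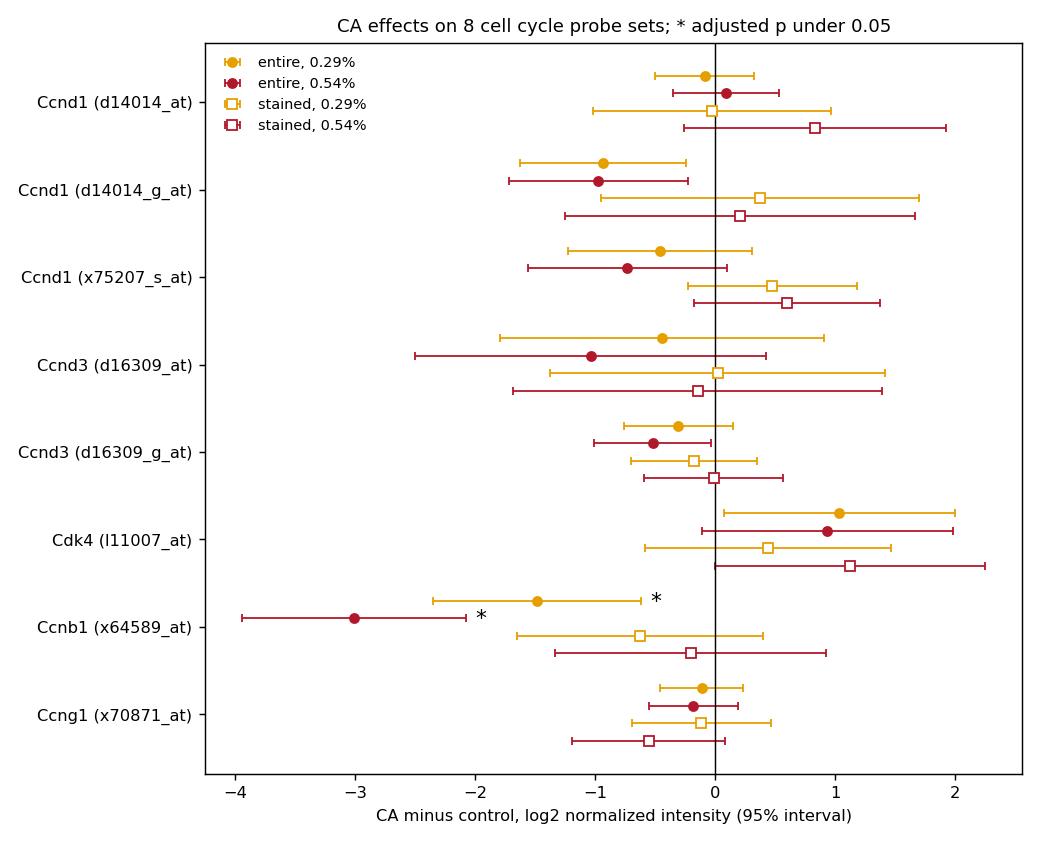
Difference between CA-treated and control liver in log2 normalized intensity (horizontal axis) with its 95% interval from limma for the 8 probe sets other than Ccnd2 and Cdk1, in entire (filled circles) and stained (open squares) sections at 0.29% and 0.54% CA; an asterisk marks adjusted p under 0.05. Ccnb1 in entire sections, at -1.48 and -3.01, is the member with asterisks.

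Between stained and entire controls 3 of 10 members were called, 2 lower and 1 higher, beside 30.2% of 8191 probe sets in either direction (13.8% lower and 16.4% higher). Ccnd1 by d14014_at fell by 1.20 on the log2 scale (SE 0.35, limma adjusted p = 0.00876, 2.30-fold lower), with 6 of 8 stained controls under every entire control. The other Ccnd1 probe sets were not called, d14014_g_at at -0.61 (limma adjusted p = 0.382) and x75207_s_at at -0.65 (limma adjusted p = 0.172). Ccnd3 by d16309_at fell by 2.37 (SE 0.66, limma adjusted p = 0.00571, 5.16-fold lower), where stained controls ran from -55 to 30 and 6 of 8 were at the floor. Its size depends on the floor and was 1.77-fold with a floor of 20. The other probe set of Ccnd3, d16309_g_at, differed by -0.43 (SE 0.23, limma adjusted p = 0.167), and was called without the 6 arrays that stood apart (-0.56, adjusted p = 0.0273). Ccng1 rose by 0.58 (SE 0.22, limma adjusted p = 0.0413), a call lost without any 1 of 12 of the 16 control arrays, entire control replicates 1 to 6 and 8 and stained control replicates 1, 2, 3, 5 and 6 (0.53 to 0.59, adjusted p up to 0.0765), and with the replicate block (limma adjusted p = 0.05). Cdk4 differed by -0.80 (SE 0.48, limma adjusted p = 0.223), and by -1.34 without entire control replicate 1 (limma adjusted p = 0.00529). The median GAPDH ratio was 10.2 in stained and 1.36 in entire controls. With the log2 of that ratio as a covariate none of the 3 calls held, as the differences became -0.32 for d14014_at (adjusted p = 0.847), 1.18 for d16309_at (adjusted p = 0.318) and -0.03 for Ccng1 (adjusted p = 0.981). The ratio ran from 1.25 to 6.25 in entire and from 4.66 to 18.9 in stained controls. Since it largely follows the preparation, this fit cannot tell the ratio and the preparation apart.

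The dehydrated and the LCM-reference-time sections have 1 array per dose, and their values were not tested here. In dehydrated sections the intensity of Ccnb1 was 72 in the control, 71 at 0.29% CA and 26 at 0.54% CA, and that of Cdk4 was 95, 48 and 23. All 7 members above the floor on the 3 dehydrated arrays had intensities that fell in order of dose, as did 33.6% of 4437 such probe sets. The mean intensity of the same arrays was 208, 188 and 161, and their GAPDH ratios were 6.36, 11.8 and 14.3, and after normalization 3 of the 7 kept that order, against 19.4% of all. In LCM-reference-time sections Ccnb1 read 47, 63 and 26 and Cdk4 6, 44 and 52, in order of dose. Of 6 members above the floor on the 3 arrays there, 1 fell in order of dose, against 7.54% of 3835 probe sets. After normalization 2 of the 6 did, against 20.4% of all. The mean intensity of those 3 arrays was 114, 142 and 168, and their GAPDH ratios were 7.28, 3.12 and 4.70. After normalization the log2 intensity of Cdk4 was 3.35, 6.14 and 5.97 there, and 6.39, 5.41 and 5.17 in dehydrated sections. The treated arrays thus read above the control for Cdk4 in LCM-reference-time sections and under it in dehydrated sections, on both scales.

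Microdissected liver had 2 of 10 members called lower under CA, beside 12.9% of 8318 probe sets in either direction (7.08% lower), in a fit that takes the spread of the 2 lone CA arrays from the other groups. Ccnd1 by x75207_s_at was 37 and 17 in the controls, 4 at 0.29% and 14 at 0.54%, and fell by 2.33 on the log2 scale (SE 0.71, limma adjusted p = 0.023). That call was lost without the 0.29% array (-1.52) and without control replicate 1 (-1.90). It was also lost on the deposited scale, with a floor of 20 (-0.63, limma adjusted p = 0.291) and with array weights. Over 13 alternatives adjusted p ran from 0.0102 to 0.451. The other 2 Ccnd1 probe sets differed the other way without a call, d14014_at by 1.01 (limma adjusted p = 0.426) and d14014_g_at by 2.05 (limma adjusted p = 0.19). For d14014_at the controls read 6 and -6, the 0.29% array 0 and the 0.54% array 31. For d14014_g_at both controls were at the floor, at -17 and 0. Its CA arrays read 12 and 14, so the size of its difference depends on the floor. In the fit of the microdissected and entire groups alone d14014_g_at was called higher (2.05, adjusted p = 0.0261), against the direction of x75207_s_at, and the count of members called was 3. Ccng1 was 46 and 29 in the controls, 8 at 0.29% and 35 at 0.54%, and fell by 1.26 (SE 0.43, limma adjusted p = 0.0483), a call lost in 11 of 13 alternatives (adjusted p 0.0075 to 0.544), such as without the 0.29% array (-0.69, adjusted p = 0.544), control replicate 1 (-1.10) or control replicate 2 (-1.42). The 0.29% array had a mean intensity of 110, the lowest of the 52. Ccnb1 read 54 and 23 in the controls, 23 at 0.29% and 101 at 0.54%, and Cdk4 23 and 23, then 31 and 74, with differences of 0.46 (95% interval -1.38 to 2.30) and 1.11 (95% interval -0.82 to 3.03) and no call.

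Set against stained sections with the doses averaged, microdissected liver had 1 member called, beside 12.3% of 8318 probe sets in either direction (5.77% lower). Ccng1 ran from 8 to 46 on 4 microdissected and from 23 to 130 on 20 stained arrays and fell by 1.36 on the log2 scale (SE 0.25, limma adjusted p = 0.000137, 2.57-fold lower). It was called in 32 of 33 alternatives and lost without the microdissected 0.29% array (-0.81, adjusted p = 0.145). The median GAPDH ratio of the microdissected arrays was 7.71, and that of the stained arrays 8.45. The 5S rRNA intensity was 97 and 285 in the microdissected controls, 319 at 0.29% CA and 754 at 0.54% CA. In stained sections it was at most 241. Ccnd1 by d14014_at (-1.04, limma adjusted p = 0.0904) and Ccnd3 by d16309_g_at (0.70, limma adjusted p = 0.0736) were called as well without the 6 arrays that stood apart, stained 0.29% replicate 7 or the microdissected 0.54% array, d14014_at also without stained control replicate 7, and d16309_g_at also without stained 0.54% replicate 5. Over 33 alternatives their adjusted p reached 0.871 and 0.778.

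Across the 15 group means, probe sets of 1 gene went together only in part. Pearson's r of the mean log2 normalized intensities, which come from shared arrays and which depend on groups of 1 array as much as on groups of 8, was 0.36 between d14014_at and d14014_g_at, 0.08 and -0.27 between these and x75207_s_at, and -0.05 between the 2 of Ccnd3. The closest pair of members was x75207_s_at with Ccng1 at 0.51, followed by d14014_g_at with Ccnb1 at 0.49. The most opposed pair was d16309_g_at with Ccng1 at -0.68. These pairs are the extremes among all pairs of members. The lone microdissected array at 0.29% CA had the highest group mean of d16309_g_at (7.16) and the lowest of Ccng1 (3.91). On it x75207_s_at was at the floor.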

How the data were processed

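Total RNA of each liver sample was hybridized to 1 one-colour oligonucleotide array. The deposited table holds a linear intensity per probe set, in whole numbers; how the authors scaled it is not stated in the labels. Of 8799 probe sets, 59 controls were kept out of normalization and tests, and between 20.6% and 30.1% of an array's values were below 0. The number of arrays limits the precision.

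Intensities were raised to a floor of 4, put on a log2 scale, quantile normalized over 52 arrays and fitted with limma 3.58.1 in R 4.3.3 (lmFit, eBayes, two-sided): the 3 entire groups together, the 3 stained groups together, these 6 for contrasts between them, and all 15 groups for microdissected samples. The procedure was tested on simulated data. The members, the lists and the alternatives were chosen with earlier results of these data known. Every member was to be named, whatever its values.

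Lists of other cell cycle genes and of cell type markers, set by symbol, could not be used, since 0 of 8740 accessions in the IDs matched the gene table (RefSeq, GRCr8). The likeness of members was likewise computed among members only. The labels do not say that replicates were separate animals, so p-values reflect only how these samples vary, which may be technical. Alternatives were the deposited scale centred on each array's median, a floor of 20, other filters on low values, other groups in the fit, the replicate number as a block, array weights, the GAPDH ratio as a covariate, leaving out 6 arrays that stood apart, and leaving out each replicate. Summaries used Python 3.11.15 and pandas 2.3.3, and figures matplotlib 3.10.9.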

Additional observations from a re-analysis of the deposited data

Results flagged for a closer look

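Across 60 groups of 5 to 8 arrays of a member, 10 had an array whose deposited intensity stood far from the rest of its group by Dixon's gap (the gap to the next array over the whole range). The limits flag about 1 in 20 groups where values are normally distributed and groups independent. These groups share arrays, so 10 of 60 cannot be read as an excess.

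All 3 Ccnd1 probe sets had such a value on entire control replicate 8: 91 for d14014_at (gap 0.742 of the range), 58 for d14014_g_at (0.729) and 80 for x75207_s_at (0.603). Cdk4 read -177 on entire control replicate 1, with the next control at 82 (0.863). It also stood apart at 177 on entire 0.29% replicate 7 (0.536) and at 69 on entire 0.54% replicate 6 (0.667), the array on which d16309_g_at of Ccnd3 was highest at 114 (0.64). On arrays with a GAPDH ratio above 4, Ccng1 read 108 on entire control replicate 7 (0.696) and d14014_g_at read -22 on entire 0.29% replicate 7 (0.698). Ccnb1 read 129 on stained control replicate 8 (0.598), an array with a 5S rRNA intensity of 232. No CA effect of a member passed the test of a difference between stained and entire sections.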

How the results depend on the processing

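Counts of members called moved by more than 1.5 times as follows. In entire sections the count at 0.29% CA was 1 and became 2 with a floor of 20, and 1 to 3 when leaving out 1 array; at 0.54% it was 1 and became 2 with array weights, and 1 to 2 when leaving out 1 array. Between entire doses it was 0, 1 with array weights, and 0 to 1 when leaving out 1 array. Between stained and entire controls it was 3 and became 0 with the GAPDH ratio as a covariate, which turned the sign of d16309_at (1.18), d16309_g_at (0.41), Ccng1 (-0.033) and the uncalled Ccnb1 (0.35 to -0.58). The ratio largely follows the preparation, and the covariate fit cannot tell them apart. In the same comparison a floor of 20 turned the sign of the uncalled d14014_g_at (-0.61 to 0.03). For the CA effect at 0.54% between preparations it was 0, 1 without the 6 arrays that stood apart, and 0 to 1 when leaving out 1 array. For CA in microdissected liver it was 2, and 0 on the deposited scale, with a floor of 20 or with array weights, 1 with the stricter filter, with no filter, with the replicate block, with the GAPDH covariate or without the 6 arrays, 3 with the entire groups as the other groups of the fit, and 0 to 2 when leaving out 1 array. For microdissected against stained liver it was 1, 3 without the 6 arrays, and 0 to 3 when leaving out 1 array. The cause was not tested beyond the values of the arrays given above.

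In the comparisons of stained sections alone the count of members stayed at 0 in every alternative. The replicate numbers were not taken to pair arrays: of 94 same-numbered pairs across groups, 30 had deviations from their group means that correlated above 0.1 (median 0.0432), and no 2 groups had all their pairs above it. Stained controls with stained 0.29% CA came nearest, with 6 of 7 pairs above 0.1 and a range of -0.17 to 0.50. With the replicate block Ccnb1 fell by 1.48 and 2.89 in entire sections, and the block ended the calls of Ccng1 between stained and entire controls (0.58) and in microdissected liver (-1.17). Low signal limits Ccnd2 and Cdk1, which never reached an intensity of 20, and the size of the fall of Ccnb1 at 0.54% CA.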
